A study of Mus musculus with 12 samples.

Results

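A set of 6 mouse genes that store, release, oxidise or sense cellular iron was followed on 12 Affymetrix arrays of BNL CL.2 cells, a liver cell line: Fth1, Ncoa4, Slc40a1, Cp, Heph and Fbxl5. They were chosen for their roles in iron handling, by name, with earlier results of these data known. Every probe set annotated with 1 of these symbols and no other was used, which gave 16 of the 34945 single-symbol probe sets tested and 6 of the 18193 genes that had such a probe set. Cp had 8 probe sets, Fth1, Ncoa4 and Slc40a1 had 2 each, and Heph and Fbxl5 had 1 each.

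All cells were BNL CL.2 cells harvested after 24 h of culture with a cell-bearing insert, and each of the 4 groups had 3 arrays. In RAW_FAC, RAW 264.7 cells (mouse macrophages of an established line) were in the insert and the medium received 100 micromolar FAC (ferric ammonium citrate, a soluble iron salt). In FAC the iron salt was added without macrophages, in RAW the macrophages were present without added iron, and in alone the insert held further BNL CL.2 cells and no iron salt was added. The medium, DMEM with serum, was common to all groups. Both kinds of cell are established lines, so the cultures are a model of liver cells and not liver tissue.

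Iron that enters a cell is stored in ferritin shells, whose heavy chain, encoded by Fth1, oxidises ferrous iron on entry. Ncoa4 encodes the receptor that carries ferritin to the lysosome for breakdown, which returns the iron. Slc40a1 encodes ferroportin, the only known cellular iron exporter of vertebrates, and the copper enzymes ceruloplasmin (Cp) and hephaestin (Heph) oxidise the exported iron so that transferrin can bind it. Fbxl5 encodes the iron-sensing subunit of the ubiquitin ligase that degrades the iron regulatory proteins. These proteins bind iron-responsive elements in mRNAs. They block translation of Fth1 and of the main Slc40a1 transcript, and they stabilise the mRNA of Tfrc, the transferrin receptor, so for Fth1 and Slc40a1 much of the known response to iron is not at the mRNA level that arrays measure. In liver, ceruloplasmin is known as a plasma protein made by hepatocytes and as an acute phase protein.

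The windows of 250 bases upstream of Ncoa4 and Cp are shown because these genes had the largest and the most even same-number differences with iron below; the choice was made after the values were seen. In the planned fit Slc40a1 1417061_at had a smaller unadjusted p (0.0084) than either. They are RefSeq sequences of GRCm38.p6, both on the plus strand, at chr14:32165539-32165788 for Ncoa4 and chr3:19956999-19957248 for Cp, each ending at the base before the most downstream of 3 (Ncoa4) or 2 (Cp) annotated starts. Capitals mark matches on either strand to any of 4 motifs, spelled out after the sequences.

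Ncoa4: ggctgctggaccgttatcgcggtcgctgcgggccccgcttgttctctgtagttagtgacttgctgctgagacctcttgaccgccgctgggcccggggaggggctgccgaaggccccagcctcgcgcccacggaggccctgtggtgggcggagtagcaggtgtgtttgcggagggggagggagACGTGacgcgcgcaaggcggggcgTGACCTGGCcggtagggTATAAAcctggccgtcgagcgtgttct

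Cp: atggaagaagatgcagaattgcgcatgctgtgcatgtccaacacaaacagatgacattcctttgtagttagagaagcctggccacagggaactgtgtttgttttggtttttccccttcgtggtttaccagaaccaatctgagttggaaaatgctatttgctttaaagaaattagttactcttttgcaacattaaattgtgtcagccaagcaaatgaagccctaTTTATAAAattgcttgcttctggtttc

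The Ncoa4 window held ACGTG, the core of the hypoxia response element, starting 68 bases before the annotated start. It also held the core of the antioxidant response element, spelled TGACNNNGC, at 44 bases, and the TATA box letters TATAAA at 27 bases. In the Cp window the capitals are 2 overlapping matches to the TATA box letters, 1 on each strand, at 27 and 25 bases. The motif searched for besides these was the STAT site, spelled TTCNNNGAA, which neither window held. Of the 32851 windows of this length in the RefSeq table, 16.6% held the hypoxia core, 10.2% the antioxidant core, 12.4% the TATA box letters and 7.02% the STAT letters. The Fth1 window, the third found for the 6 genes, held none of the 4 motifs. These are matches of letters in 1 window per gene, and which start BNL CL.2 cells use was not analysed here.

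The deposited values are log2 signals, from 2.42 to 14.6 over the table, with array medians between 5.63 and 5.68. Tfrc, used as the check that added iron reached the cells, had at probe set 1452661_at 12.31, 12.18 and 11.55 in RAW_FAC and 12.35, 12.14 and 11.46 in FAC, against 13.40, 13.16 and 13.07 in RAW and 13.28, 13.29 and 13.11 in alone (replicates 1, 2 and 3 in each case). At this probe set and at 1422967_a_at the 6 arrays with iron were below the 6 without, while at 1422966_a_at they overlapped. Of 14 measured macrophage markers, 4 were above the median probe set level of 5.64, with Cd14 at 12.04, while Ptprc was at 3.50 and Itgam at 3.69. The mean of the 14 macrophage markers on an array ran from 5.54 to 5.58 in RAW_FAC, 5.51 to 5.63 in FAC, 5.57 to 5.60 in RAW and 5.49 to 5.56 in alone. Apob (11.82) and Hnf4a (10.45) were among the 6 of 12 hepatocyte markers above the median level, but Alb (5.20) and Fgb (4.29) were not, and 7 of 7 biliary or epithelial markers were, led by Krt8 at 14.28. Of 8 fibroblast or stellate markers 3 were above it, with Vim at 14.14, while Col1a1 was at 4.65. Of 4 endothelial markers 1 was above it. The mean of the 12 hepatocyte markers on an array ran from 6.44 to 6.52 in RAW_FAC, 6.39 to 6.52 in FAC, 6.29 to 6.46 in RAW and 6.31 to 6.48 in alone. The labels give the tissue of origin as liver, but the cells lacked a high level of Alb, a defining hepatocyte marker. In bulk RNA, fewer cells of a type and less RNA per cell cannot be told apart.

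Signals of different probe sets cannot be set against each other as amounts of RNA, so the levels are given by their place among all probe sets. The 2 Fth1 probe sets had means of 14.33 and 14.02 over the 12 arrays, above those of 99.7% of all probe sets or more. Ncoa4 had 11.57 and 8.54, Fbxl5 had 10.05, and the 8 Cp probe sets spread from 4.45 to 10.48. Both Slc40a1 probe sets (4.83 and 3.74) and the Heph probe set (2.92) lay below the median level of all probe sets. The Heph probe set was in the lowest 1.16% of the table. The deposited values carry no detection calls, so whether these 3 probe sets measured anything above background was not analysed here.

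**Figure D1:**
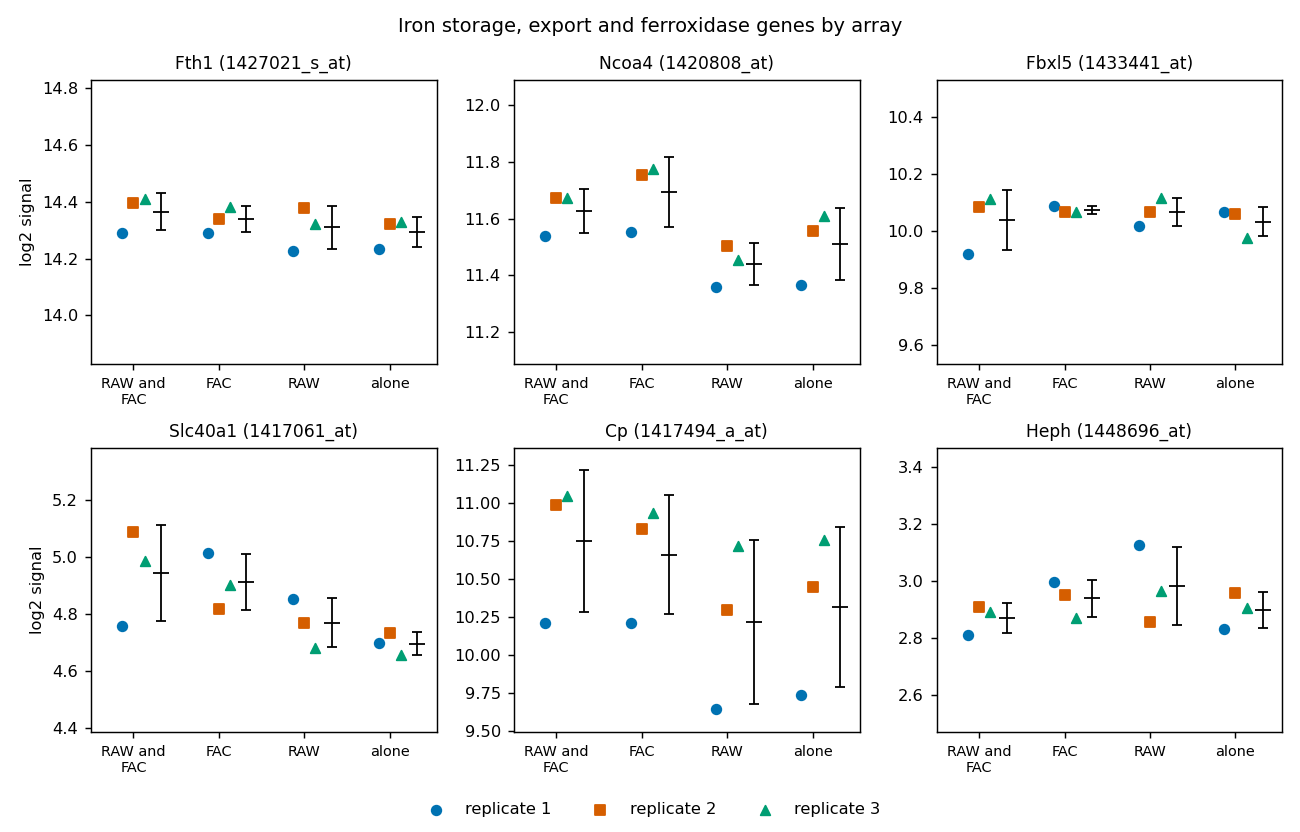
Log2 signal (vertical axis) of the probe set with the highest mean for each of the 6 genes, in the 4 groups; symbols are the 3 arrays of a group by replicate number, and the bars beside them are the mean with its SD. Each panel has its own range. Ncoa4 and Cp sit higher in the 2 iron groups at each replicate number, Cp replicate 1 is lowest in every group, and Heph stays between 2.81 and 3.13.

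In the comparison of group means planned for this layout, a limma fit with 1 mean per group, 0 of the 16 member probe sets passed an adjusted p of 0.05 in any comparison. That fit called 0% of 45037 probe sets in FAC over alone, RAW_FAC over RAW, RAW over alone, RAW_FAC over FAC, RAW_FAC over alone, the average difference with iron and the interaction, and 0.00222% in the average difference with macrophages. The average difference with iron is the mean of FAC minus alone and RAW_FAC minus RAW. With the replicate numbers entered as a block, limma called 4 of the 16 member probe sets higher in that average, all of them of Cp, where it called 0.289% of all probe sets higher and 0.369% in either direction. That count of 4 became 0 without FAC replicate 2, 1 without FAC replicate 1, RAW replicate 1, RAW replicate 2 or alone replicate 2, and 2 without RAW_FAC replicate 1, RAW_FAC replicate 2 or alone replicate 1. In the blocked fit 0 of 16 passed in FAC over alone (0.00222% of all), in RAW_FAC over RAW (0.0178%) and in RAW_FAC over alone (0.0333%). The blocked fit also called 0 of 16 in RAW over alone (0%), in RAW_FAC over FAC (0%), in the average difference with macrophages (0.00666%) and in the interaction (0%). At an unadjusted p under 0.05, the average with iron had 2 of 16 members without the block and 8 with it, beside 5.58% and 9.92% of all probe sets. These are counts of probe sets, several of them of 1 gene, and not of separate genes.

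Arrays with the same number deviated together across groups, which is why the blocked values are given. In comparisons of iron the blocked SE and adjusted p may understate the error, because the residuals of same-number arrays had a median correlation of 0.374 where both arrays had iron or both lacked it, and of 0.268 otherwise. Without regard to any test, 14 of 16 member probe sets had a difference above 0 in FAC over alone (median 0.11) and 14 of 16 in RAW_FAC over RAW (median 0.13). Over all probe sets the medians were -0.00 in both, and 49.5% and 48.1% were above 0. Since Cp supplies 8 of the 16, these are not counts of separate genes. Taking the difference between the arrays of equal number in FAC and alone, and in RAW_FAC and RAW, gives 6 same-number pairs for iron. In 9 of 16 member probe sets the array with iron was higher in 6 of 6 such pairs, against 3.23% of all probe sets. The 9 were both of Fth1, both of Ncoa4 and 5 of Cp, and probe sets of 1 gene share its RNA, so they count as 3 genes.

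**Figure D2:**
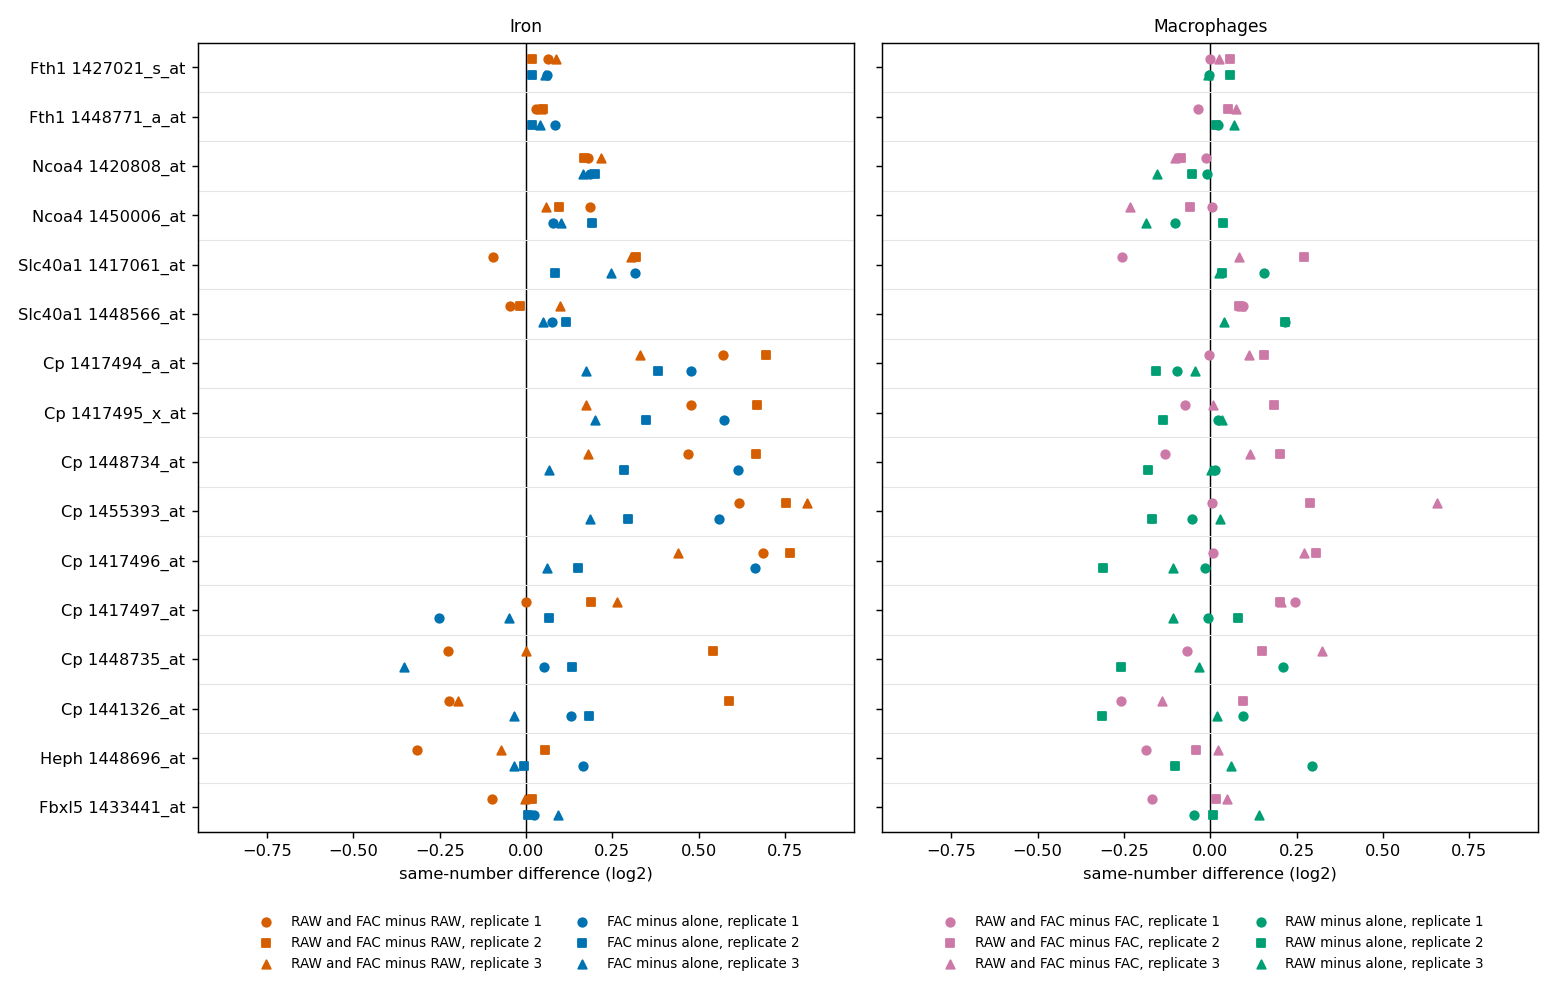
Same-number differences in log2 signal for the 16 probe sets, with iron (left: RAW_FAC minus RAW and FAC minus alone) and with macrophages (right: RAW_FAC minus FAC and RAW minus alone); each symbol is 1 pair of arrays. On the left both Fth1 and both Ncoa4 probe sets and 5 of the 8 Cp probe sets have 6 of 6 points above 0. On the right Ncoa4 1420808_at has all points below 0 and Slc40a1 1448566_at all above.

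Fth1, the ferritin heavy chain, moved little. At 1427021_s_at it had 14.29, 14.40 and 14.41 in RAW_FAC, 14.29, 14.34 and 14.38 in FAC, 14.23, 14.38 and 14.32 in RAW, and 14.23, 14.32 and 14.33 in alone. The 4 groups overlapped, and replicate 1 was the lowest array of each. The difference was 0.04 ± 0.07 (SE, n = 3 per group) in FAC over alone and 0.06 ± 0.07 in RAW_FAC over RAW. The second probe set, 1448771_a_at, which ran from 13.92 to 14.11 over the 12 arrays, had 0.05 ± 0.07 and 0.04 ± 0.07 in these comparisons. The 6 same-number pairs with iron ran from 0.02 to 0.09 and from 0.02 to 0.08 at the 2 probe sets, all above 0 and small beside the spread of 0.18 and 0.19 over the 12 arrays. The average difference with iron at 1427021_s_at was 0.05 (95% interval -0.05 to 0.15, limma adjusted p = 0.95; -0.03 to 0.13 with the block, adjusted p = 0.73), so the largest increase within the wider interval was 0.15 on the log2 scale. The values lay near the top of the scale, whose highest entry was 14.6. An _s_at probe set can match more than 1 transcript, and signal from near-identical copies of Fth1 cannot be separated here.

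Ncoa4, the ferritin receptor of the lysosomal route, was higher with iron at both probe sets in every pair, by a small amount that did not pass in the planned fit. At 1420808_at it had 11.54, 11.67 and 11.67 in RAW_FAC, against 11.36, 11.50 and 11.46 in RAW. It had 11.55, 11.75 and 11.77 in FAC, against 11.37, 11.56 and 11.61 in alone. RAW_FAC did not overlap RAW, which held for 1 of 16 member probe sets and for 4.12% of all probe sets in that direction. FAC overlapped alone, since FAC replicate 1 lay below alone replicates 2 and 3. Within pairs the difference with iron ran only from 0.17 to 0.22.

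The average difference with iron of Ncoa4 1420808_at was 0.19 ± 0.06, a 1.14-fold difference (limma unadjusted p = 0.0096, adjusted p = 0.84). With the block it was 0.19 ± 0.04 (adjusted p = 0.10), still short of the threshold. It passed with the block in fits to 1 probe set per gene (adjusted p = 0.046), with moderation by trend and robust (adjusted p = 0.0030) and to probe sets at or above the median level (adjusted p = 0.024). The last of these fits was added after the values were seen. With the block and 1 array left out, this average passed in 0 of 12 fits (limma adjusted p from 0.15 to 0.29). At 1450006_at, which had 8.55, 8.66 and 8.43 in RAW_FAC, 8.55, 8.72 and 8.66 in FAC, 8.37, 8.57 and 8.37 in RAW, and 8.47, 8.53 and 8.56 in alone, the average was 0.12 ± 0.06 (adjusted p = 0.90, or 0.43 with the block). Here the groups overlapped and the 6 pairs ran from 0.06 to 0.19. With macrophages, 1420808_at was lower in 6 of 6 pairs (-0.15 to -0.01, against 2.59% of all probe sets with 6 of 6 below 0), with an average of -0.07 ± 0.06 (adjusted p = 1.0). The second probe set was lower in 4 of 6 of these pairs.

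Slc40a1, ferroportin, was weakly measured. At 1417061_at it had 4.76, 5.09 and 4.99 in RAW_FAC and 5.01, 4.82 and 4.90 in FAC, against 4.85, 4.77 and 4.68 in RAW and 4.70, 4.74 and 4.66 in alone. The 3 FAC arrays and the 3 RAW_FAC arrays were each above the 3 alone arrays, while RAW_FAC overlapped RAW through its replicate 1. The difference was 0.21 ± 0.09 in FAC over alone (limma unadjusted p = 0.031, adjusted p = 1.0) and 0.18 ± 0.09 in RAW_FAC over RAW (adjusted p = 0.91), and 5 of 6 same-number pairs were above 0 (-0.10 to 0.32). The average with iron was 0.20 ± 0.06, a 1.15-fold difference (adjusted p = 0.84, or 0.33 with the block).

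The second Slc40a1 probe set, 1448566_at, had 3.80, 3.80 and 3.82 in RAW_FAC, 3.71, 3.72 and 3.73 in FAC, 3.85, 3.82 and 3.72 in RAW, and 3.63, 3.60 and 3.68 in alone. Its alone arrays were the 3 lowest of the 12. It was higher with macrophages in 6 of 6 pairs (0.04 to 0.22, against 2.50% of all probe sets), with an average of 0.12 ± 0.04 (unadjusted p = 0.014, adjusted p = 1.0, or 0.64 with the block). With iron its average was 0.05 (adjusted p = 0.95). The 2 Slc40a1 probe sets supplied both member probe sets in which FAC lay above alone without overlap (4.17% of all probe sets did). They were also the 2 members in which RAW_FAC lay above alone without overlap (4.56% of all probe sets did). The probe set 1448566_at was also the 1 member in which RAW lay above alone (5.45%) and RAW_FAC above FAC (3.51%) without overlap. No Slc40a1 difference passed in either fit.

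Cp, the ceruloplasmin gene, had the largest differences with iron among the 6 genes. At 1417494_a_at, its probe set with the highest mean, it had 10.21, 10.99 and 11.05 in RAW_FAC, against 9.64, 10.29 and 10.71 in RAW. It had 10.21, 10.83 and 10.93 in FAC, against 9.73, 10.45 and 10.76 in alone. The groups overlapped because arrays numbered 1 were low in all of them, but at each number the array with iron was higher.

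In FAC over alone the difference of 1417494_a_at was 0.34 ± 0.31 without the block (adjusted p = 1.0) and 0.34 ± 0.08 with it (adjusted p = 0.51). In RAW_FAC over RAW it was 0.53 ± 0.31 (adjusted p = 0.91) and 0.53 ± 0.08 with the block (adjusted p = 0.084). The average with iron was 0.44, a 1.35-fold difference, with a 95% interval of -0.04 to 0.92 without the block (adjusted p = 0.90) and 0.31 to 0.56 with it (adjusted p = 0.012). The average with macrophages was -0.00 (-0.48 to 0.47, or -0.13 to 0.12 with the block), and the interaction of iron and macrophages was 0.19 (adjusted p = 1.0 in both fits). The blocked call was lost without FAC replicate 1 (0.41, adjusted p = 0.052), FAC replicate 2 (0.43, adjusted p = 0.058) or alone replicate 2 (0.43, adjusted p = 0.053), and it held without any 1 of the other 9 arrays. Afp (alpha-fetoprotein), 1 of the 12 hepatocyte markers, averaged 9.29 in RAW_FAC and 9.23 in FAC, against 8.86 in RAW and 8.76 in alone, and the array means of the 12 markers overlapped between groups as given above. Alb averaged 5.17 in RAW_FAC and 5.29 in FAC, against 5.17 in RAW and 5.19 in alone. Hnf4a averaged 10.36 in RAW_FAC and 10.45 in FAC, against 10.44 in RAW and 10.56 in alone. Apob averaged 11.88 in RAW_FAC and 11.82 in FAC, against 11.81 in RAW and 11.77 in alone. The part of hepatocyte markers in the Cp result was not tested.

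The Cp probe sets fell into 5 with means from 7.95 to 10.48 and 3 dimmer ones with means from 4.45 to 5.95, a division made after the values were seen. Across the 12 arrays the 5 correlated with each other at 0.913 to 0.995, while correlations that involved a dimmer probe set ran from 0.122 to 0.770; these arrays share replicate numbers and treatments. With the block, 4 of the 5 passed as higher with iron on average: 1417494_a_at as above, 1455393_at by 0.54 ± 0.07 (adjusted p = 0.013), 1417496_at by 0.46 ± 0.07 (adjusted p = 0.030) and 1417495_x_at by 0.41 ± 0.07 (adjusted p = 0.031). The last of the 5, 1448734_at, had 0.38 ± 0.07 (adjusted p = 0.074). The 3 dimmer probe sets, 1417497_at, 1448735_at and 1441326_at, had averages of 0.04, 0.02 and 0.07, with pairs on both sides of 0. Over the 12 arrays 1417495_x_at ran from 9.67 to 10.94 and 1448734_at from 9.30 to 10.55. The dimmer 1417497_at ran from 5.66 to 6.20, 1448735_at from 4.54 to 5.26 and 1441326_at from 4.06 to 4.84.

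**Figure D3:**
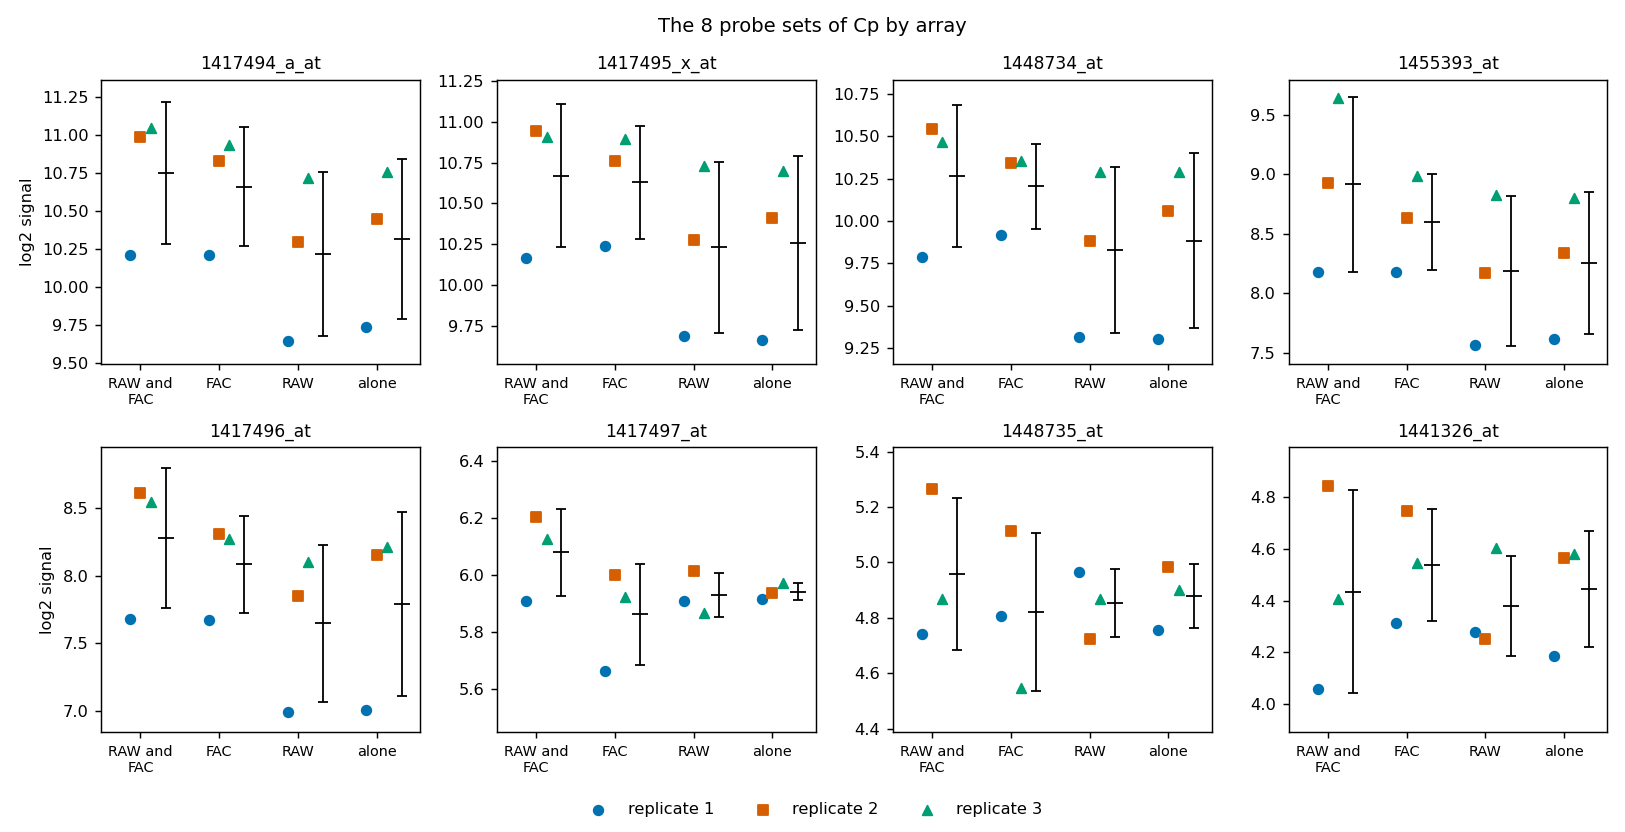
Log2 signal (vertical axis) of the 8 Cp probe sets in the 4 groups, in order of mean level; symbols are arrays by replicate number, and the bars are the group mean with its SD. Panels differ in range. In the first 5 panels replicate 1 is lowest in every group and each array with iron is above its same-number array without iron; the last 3 panels, with means from 4.45 to 5.95, show no such order.

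Cp differed more between replicate numbers than with iron. The means of the 4 arrays numbered 1, 2 and 3 were 9.95, 10.64 and 10.86 at 1417494_a_at, and the range of such means over the 5 brighter probe sets was 0.77 to 1.18, against average differences with iron of 0.38 to 0.54. The array numbered 1 was the lowest of its group in 4 of 4 groups at each of these 5. The pair differences with iron at 1417494_a_at were 0.57, 0.69 and 0.33 for RAW_FAC minus RAW and 0.48, 0.38 and 0.17 for FAC minus alone, in the order of the numbers. What the numbers stand for is not given, so this spread may be technical, and its part in the result was not tested beyond the block and the omitted arrays.

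At 1455393_at, RAW_FAC had 8.18, 8.92 and 9.64, against 7.56, 8.17 and 8.83 in RAW, and FAC had 8.17, 8.64 and 8.98, against 7.61, 8.34 and 8.80 in alone. RAW_FAC replicate 3 stood apart from the other Cp probe sets of that array. There 1455393_at was below 1417494_a_at by a log2 difference of -1.40, while that difference was -2.20 to -1.89 on the other 11 arrays. The interaction at this probe set was 0.38 ± 0.14 with the block (unadjusted p = 0.021, adjusted p = 1.0). In that limma fit 2 of 16 member probe sets, both of Cp, had an interaction at an unadjusted p under 0.05, beside 4.6% of all probe sets. At 1417496_at, which had 7.68, 8.61 and 8.55 in RAW_FAC, 7.67, 8.31 and 8.27 in FAC, 6.99, 7.85 and 8.11 in RAW, and 7.01, 8.16 and 8.21 in alone, the interaction was 0.34 (adjusted p = 1.0 in both fits).

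Heph, the membrane-bound relative of ceruloplasmin, stayed near the floor of the table. It had 2.81, 2.91 and 2.89 in RAW_FAC, 3.00, 2.95 and 2.87 in FAC, 3.13, 2.86 and 2.97 in RAW, and 2.83, 2.96 and 2.90 in alone. All groups overlapped, and its average differences were -0.04 with iron and 0.01 with macrophages (adjusted p = 0.97 and 1.0).

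Fbxl5, the iron sensor of the ubiquitin ligase, had 9.92, 10.08 and 10.11 in RAW_FAC, 10.09, 10.07 and 10.07 in FAC, 10.02, 10.07 and 10.12 in RAW, and 10.07, 10.06 and 9.97 in alone. The 12 arrays spanned 0.20 and the groups overlapped. The average difference with iron was 0.01 with a 95% interval of -0.10 to 0.11, and with macrophages -0.00 with an interval of -0.11 to 0.11. Its level was above that of 87.6% of all probe sets.

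**Figure D4:**
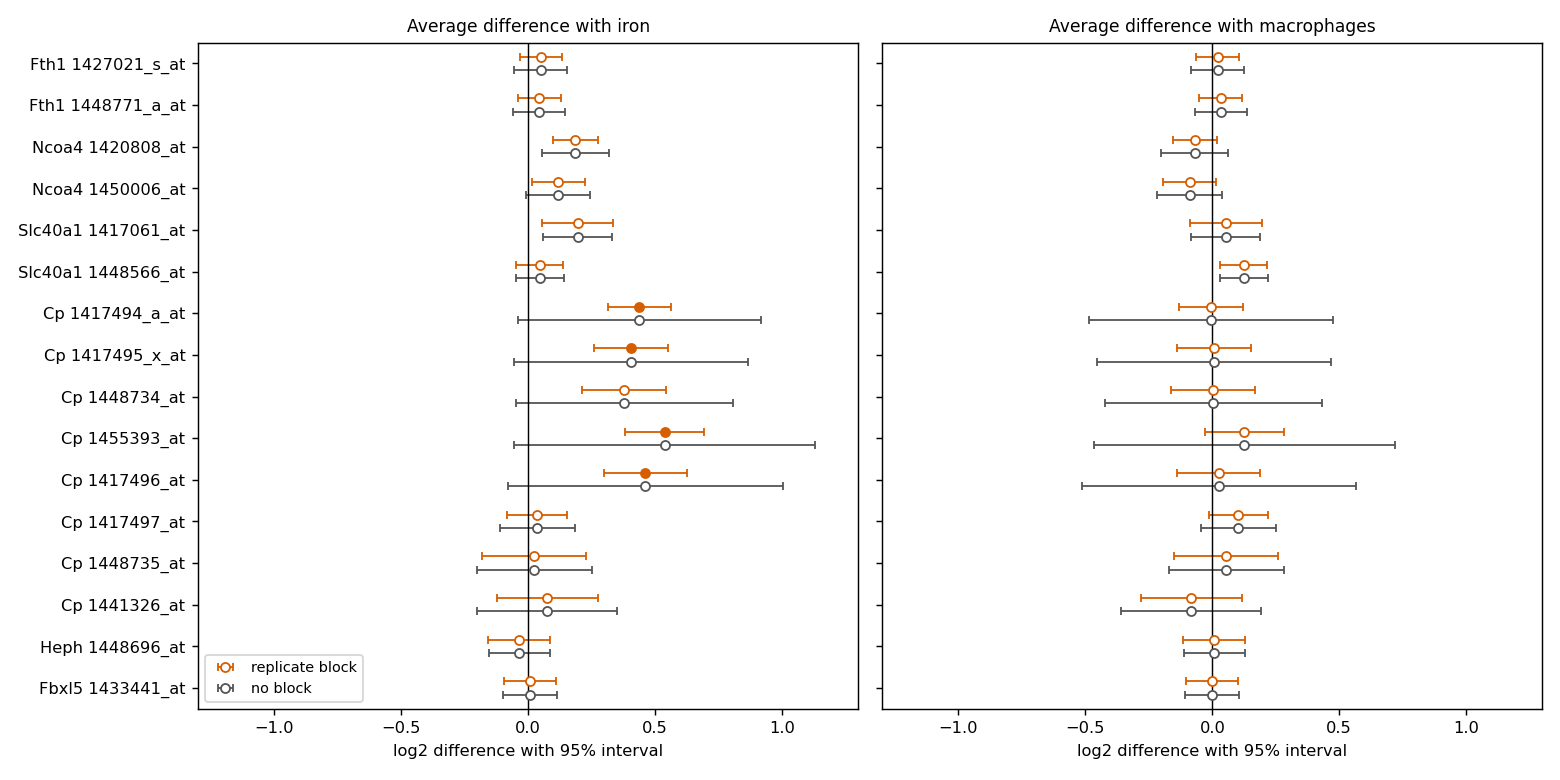
Average log2 difference with iron (left) and with macrophages (right) for the 16 probe sets, with 95% intervals (horizontal bars) from the limma fit with the replicate block and the fit without it; filled symbols have an adjusted p under 0.05 over all probe sets. The 4 filled symbols are Cp probe sets with averages of 0.41 to 0.54 with iron in the blocked fit; their intervals without the block reach below 0.

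Other genes of the pathway were counted at 1 probe set each, from lists of known roles, in the blocked average with iron. These lists and those of the next paragraph were also chosen with earlier results of these data known. Of 21 measured genes of iron uptake and control, 1 passed: Tfrc, which fell by 1.22 ± 0.09 at 1452661_at (limma adjusted p = 0.0013 with the block, 0.086 without it). At this probe set the block also gave a call in FAC over alone (-1.25, adjusted p = 0.038, against 1.0 without it), in RAW_FAC over RAW (-1.20, 0.032 against 0.91) and in RAW_FAC over alone (-1.21, 0.017 against 0.64). Of the other Tfrc probe sets, 1422967_a_at had an average of -1.28 (adjusted p = 0.0062 with the block, 0.59 without it) and 1422966_a_at had -0.29 and did not pass (0.062 and 0.85). The list had a median of -0.01 and 9 genes above 0, beside 48.7% of all probe sets above 0. Of 6 ferritin partners and iron chaperones 0 passed, with a median of 0.04 and 6 above 0. They were Ftmt, the poly(C)-binding iron chaperones Pcbp1, Pcbp2, Pcbp3 and Pcbp4, and Herc2, which marks Ncoa4 for degradation. Of 26 autophagy genes 0 passed (median 0.03, 17 above 0), and of 9 genes that supply copper to the ferroxidases 0 passed (median -0.00, 4 above 0). Of 6 genes of the Fbxl5 ubiquitin ligase and its targets 0 passed (median -0.01, 2 above 0). In these 5 lists the fit without the block called 0 genes.

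A further pair of lists hold genes whose regulation is shared, as background, with members: Cp is an acute phase gene, and Fth1 is a target of the oxidative stress factor NRF2. Of 19 acute phase genes, 2 passed as higher in the blocked average with iron. Saa3, a serum amyloid A protein, rose by 0.56 ± 0.09 (limma adjusted p = 0.027). Lbp, which binds bacterial lipopolysaccharide, rose by 0.42 ± 0.06 (adjusted p = 0.015). The list median was 0.05 with 15 above 0, where that fit called 0.289% of all probe sets higher and 48.7% were above 0. Hp (haptoglobin), Orm1 and Fgb, classical members of this list, had 0.10, -0.13 and 0.07 and did not pass. Of 20 NRF2 targets, 12 passed as higher in that fit, with a list median of 0.32 and 20 of 20 above 0, beside the same shares of all probe sets. Among them Slc7a11, the cystine importer, rose by 0.89 ± 0.08 (adjusted p = 0.0023), Nqo1, a quinone reductase, by 0.54 ± 0.06 (adjusted p = 0.0069) and Hmox1, which breaks down heme, by 0.49 ± 0.08 (adjusted p = 0.027). Without the block 0 genes of either list passed. Beside these values, the average with iron was 0.05 for Fth1, 0.19 for Ncoa4 and 0.44 for Cp.

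The genes whose 12-array pattern was most like each member were taken from 11256 genes at or above the median level, as a description over arrays that share treatments and replicate numbers. Ncoa4 was closest to Entpd5 (Pearson r = 0.985), Aldh3a2 (0.959) and Cbr3 (0.946), and r with Entpd5 was 0.988 without the 2 arrays farthest from the median. Cp was closest to Maged1 (0.970), Nucb2 (0.969) and Sec63 (0.969). Fth1 was closest to Aldh2 (0.966), 1110002L01Rik (0.948) and Slpi (0.943). The closest gene to Slc40a1 was Tbc1d10a (0.866), to Fbxl5 Gsdma2 (0.865) and to Heph Rsl1 (0.814), and the last was 0.376 without the 2 farthest arrays.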

How the data were processed

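Total RNA of 12 BNL CL.2 samples, 3 in each of 4 groups, was hybridised to Affymetrix mouse arrays. The authors deposited log2 signals, made with RMA in affy per the submitters' processing notes; the version of either tool is not given in the sources used. They were used with no further scaling. Of 45101 probe sets, 64 array controls were left out and 45037 tested. Gene names came from the platform annotation, and promoters from RefSeq. A probe set with several symbols was not used for any gene. Ftl1, the ferritin light chain, had no probe set of its own in this annotation. The number of arrays limits the precision.

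Group means were modelled with limma 3.58.1 in R 4.3.3 (lmFit and eBayes, two-sided, 8 residual and 5.12 prior degrees of freedom), per probe set and over all probe sets, with Benjamini-Hochberg adjustment at 0.05. Means, pairs and figures were made with Python 3.11.15, numpy 2.4.6, pandas 2.3.3 and matplotlib 3.10.9. Groups and replicate numbers came from the sample titles, which do not say what the numbers stand for. No source says whether replicates came from separate cultures, so each p-value refers to the spread among these arrays, which may be technical. As deviations from group means, the 18 same-number pairs of arrays correlated at 0.24 to 0.43 and the 36 other pairs at -0.31 to 0.02, and 12 of 12 arrays were closest to an array of their own number. The numbers were therefore taken to pair the arrays, and the fit with the number as an additive block (6 residual degrees of freedom) is given beside the planned one where it changes the call of a named gene.

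The alternatives were a random block, array weights, trend and robust moderation, a filter on low levels, median centring, quantile normalization, 1 probe set per gene, only the compared groups, and leaving out each array. Combinations with the block were partly added after the values were seen. The fits were tested on simulated data. The named genes are all members, Tfrc, genes of the pathway lists that passed in either fit, and the 3 genes most like each member; Hp, Orm1, Fgb and the members of the ferritin partner list were named outside this rule. The members and lists were chosen with earlier results of these data known.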

Additional observations from a re-analysis of the deposited data

Results flagged for a closer look

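At Cp probe set 1417496_at the difference with macrophages had opposite directions with and without iron. RAW_FAC over FAC was 0.20 and RAW over alone -0.14, a difference between the 2 of 0.34 on the log2 scale. The same-number pairs were 0.01, 0.31 and 0.27 in the first and -0.01, -0.31 and -0.11 in the second, in the order of the numbers. Replicate 1 thus differed little in both. The interaction had an adjusted p of 1.0 in limma with and without the replicate block (unadjusted p = 0.044 with it, where 4.6% of all probe sets were under 0.05).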

How the results depend on the processing

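In the planned fit the number of member probe sets called was 0 in each comparison, and it stayed 0 in each alternative without the additive block, including the random block and each fit without 1 array. The replicate block gave 4 in the average with iron, as did the block with arrays centred on their median; these and the following counts were of 16 unless stated. The block with 1 probe set per gene, which leaves 6 members, gave 2 in the average with iron and 1 in RAW_FAC over RAW. The block with trend and robust moderation gave 6 in that average, 4 in RAW_FAC over RAW and 4 in RAW_FAC over alone. The block with probe sets at or above the median level gave 6, 2 and 2 in these comparisons, and these counts were not of 16. That filter kept 2 member probe sets of Fth1, 2 of Ncoa4, 6 of Cp and 1 of Fbxl5, and 0 of Slc40a1 and Heph. The block without the 4 arrays numbered 3 gave 3 in the average with iron. With the block and 1 array left out, the count in the average with iron ran from 0 to 4 (0 without FAC replicate 2, 1 without FAC replicate 1, RAW replicate 1, RAW replicate 2 or alone replicate 2, and 2 without RAW_FAC replicate 1, RAW_FAC replicate 2 or alone replicate 1). In RAW_FAC over RAW and in RAW_FAC over alone it ran from 0 to 1, and was 1 without FAC replicate 1 or FAC replicate 3. Shares of all probe sets called were given above only for the planned fit and for the replicate block by itself. The member counts of the other fits have no such share beside them, so a larger count there says nothing particular to the members. Among the tracked probe sets 0 called differences changed sign. Among the members the block by itself changed no call outside the average with iron. The cause of these movements was not tested. The table has no detection calls, so what low signal limits at Slc40a1 and Heph was not analysed here.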
